A study of Mus musculus with 7 samples.

Results

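The subject is a set of 27 transcript rows that were more abundant in extracellular vesicles (EVs) than in the cells that released them. The source was the mouse macrophage line RAW264.7. They were chosen among 3639 transcript rows named only by an Ensembl transcript ID. Left out beforehand were 24 mitochondrial transcripts and 3 transcripts that dominate the libraries, which left 3612. Of these, 319 had at least 100 counts over the EV and cell libraries of the control line, and 27 of the 319 were selected on a CPM in EVs at least 2 times that in cells. CPM is a library's counts scaled to a common total over the 3894 rows that represent whole RNAs (transcripts, tRNAs, SINE repeats and 4.5S RNA), not pieces of transcripts. The deposited table does not pair the IDs with gene names or RNA types, and 0 of the 27 could be matched to a gene name in the reference tables. Whether each is noncoding could therefore not be checked. Each has 1 UTR piece row and none has an exon or intron piece row, which is also the case for the UTR pieces of all 292 transcripts below the limit.

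The study read RNA from cells and EVs after knockdown of Dis3l2. Whole-cell RNA came from a line with a non-silencing hairpin (shNS) and a line with a hairpin against Dis3l2 (shDis3l2). EV RNA came from both lines and from shDis3l2 cells that also carried an empty vector (Vector), Dis3l2 that the hairpin does not target (Dis3l2r) or the D389N form, which the submitters describe as catalytically inactive. All 7 samples were labelled as treated with doxycycline, at 1 μg/mL per the labels' protocol, and medium for EVs was collected after 24 h. EVs were isolated by density in sucrose, and micrococcal nuclease was applied before RNA was extracted. The labels give rRNA depletion for cell RNA and nothing on it for EV RNA, and they do not give the promoter of the transgenes or whether a line is a clone. Each group has 1 library, so no group has a replicate and a ratio of 2 libraries compares those libraries, not the conditions.

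Dis3l2 is a 3' to 5' exoribonuclease that degrades RNAs carrying a tail of uridines, many of them short structured noncoding RNAs. EVs are membrane-bound particles shed by cells, and RNA polymerase III products such as tRNAs, Y RNAs and vault RNAs are known EV cargo. A nuclease step before extraction removes RNA that lies outside the membrane. Reverse transcriptases of the group II intron type read through tight RNA structure, which makes such RNAs easier to sequence from end to end.

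Whole-RNA counts came to 13439408 to 25177102 in the 5 EV libraries and to 37041326 and 32342600 in shNS and shDis3l2 cells. A count of 3 stands for 0.0810 to 0.223 CPM at these depths. Transcript rows with any count numbered 484 in shNS cells, 662 in shDis3l2 cells and 504 to 579 in EVs. One left-out transcript, ENSMUST00000083988, held 19.3% of shNS and 46.1% of shDis3l2 cell counts and 2.08% to 8.30% of EV counts. Mitochondrial transcripts held 38.5% of shNS and 9.19% of shDis3l2 cell counts. Results are given with and without the former in the totals where it matters, and the part of the mitochondrial share was not tested. The knockdown and re-expression of Dis3l2 could not be checked in a table without gene names. CPM is a share of a library, so more copies per vesicle and fewer copies of other RNAs cannot be told apart.

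The ratios that chose the members are a description only. In the shNS pair they ran from 2.62 to 456, with a median of 22.6. Just inside the 2-fold limit stood ENSMUST00000104135 at 2.62 and ENSMUST00000178106 at 3.85. Just outside stood ENSMUST00000101927 at 1.64 and ENSMUST00000178497 at 1.58. In shNS cells 2 members were listed at 0, and against a floor of 3 counts in that library their ratios were at least 62.8 and 120.9. The other 5 libraries (shDis3l2 cells and the shDis3l2, Vector, Dis3l2r and D389N EVs) took no part in the choice. Members are numbered 1 to 27 by their summed counts in those 5 libraries.

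Together the 27 transcripts held a similar share of every EV library and a far smaller share of the cell libraries. Their share was 11.4% (exact binomial 95% interval 11.38% to 11.41%) in shDis3l2 EVs, 12.3% in Vector EVs, 13.7% in Dis3l2r EVs and 11.9% in D389N EVs. In shDis3l2 cells it was 1.57% (1.56% to 1.57%). The libraries of the rule stood at 12.1% in EVs and 0.826% in cells. Intervals here cover counting error only. The 4 EV libraries outside the rule all lay above shDis3l2 cells. The gap between the shNS libraries was fixed by the choice of members. The 292 transcripts with enough counts that the rule did not take made the opposite picture, with 25.5% of shDis3l2 cell counts and 0.551% to 0.996% of EV counts. The 4.5S RNA, a short rodent RNA polymerase III transcript, held 4.78% to 8.30% of EV counts, less than the 27 together in every EV library, and tRNA rows held 69.5% to 75.8%.

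**Figure D1:**
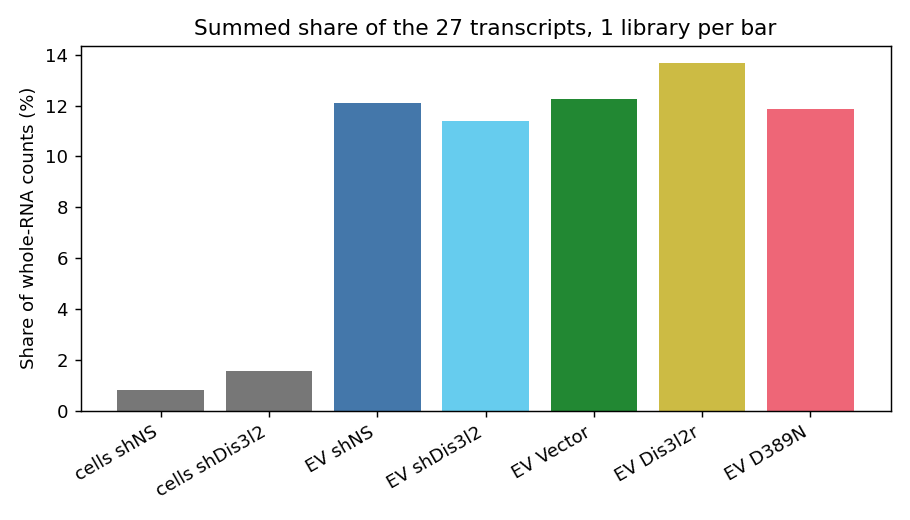
Summed counts of the 27 transcripts as a percent of whole-RNA counts (y axis) in each library (x axis), 1 library per bar, with no error bars because there are no replicates. The 5 EV libraries stand between 11.4% and 13.7% and the 2 cell libraries at 0.826% and 1.57%.

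Few members carried most of this share. The same 5 members were the highest in all 7 libraries, and they held 10.5% to 12.8% of whole-RNA counts in EVs, against 0.714% to 1.11% for the other 22. Member 1, ENSMUST00000083767, stood at 39227 CPM in shNS EVs, 26087 in shDis3l2 EVs, 35510 in Vector, 34821 in Dis3l2r and 46338 in D389N EVs, and at 2194 and 2287 CPM in shNS and shDis3l2 cells. Its EV values were all above both cell values, the lowest being 11.4 times the level in shDis3l2 cells. Member 2, ENSMUST00000083211, varied least among the 4 EV libraries outside the rule, from 32121 to 35820 CPM (1.12-fold). It had 31783 CPM in shNS EVs, 930 in shNS cells and 1192 in shDis3l2 cells.

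Member 3, ENSMUST00000198477, stood apart in Dis3l2r EVs, where it was the highest member. It had 43259 CPM there, against 21865 in shDis3l2, 22954 in Vector, 16499 in D389N and 19683 in shNS EVs. In cells it had 625 CPM with shNS and 4267 with shDis3l2. Member 4, ENSMUST00000178106, was the member that cells held most of. It had 3024 and 5921 CPM in shNS and shDis3l2 cells, and 10264, 9305, 7684 and 6065 CPM in shDis3l2, Vector, Dis3l2r and D389N EVs. The D389N value lay just above that of shDis3l2 cells, so the compartments nearly met. Without ENSMUST00000083988 in the totals, the shDis3l2 cell level of member 4 lay above all of these EV levels. Member 5 ranged from 6500 CPM in D389N EVs to 12625 in shDis3l2 EVs, all above the 732 CPM of shDis3l2 cells.

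**Figure D2:**
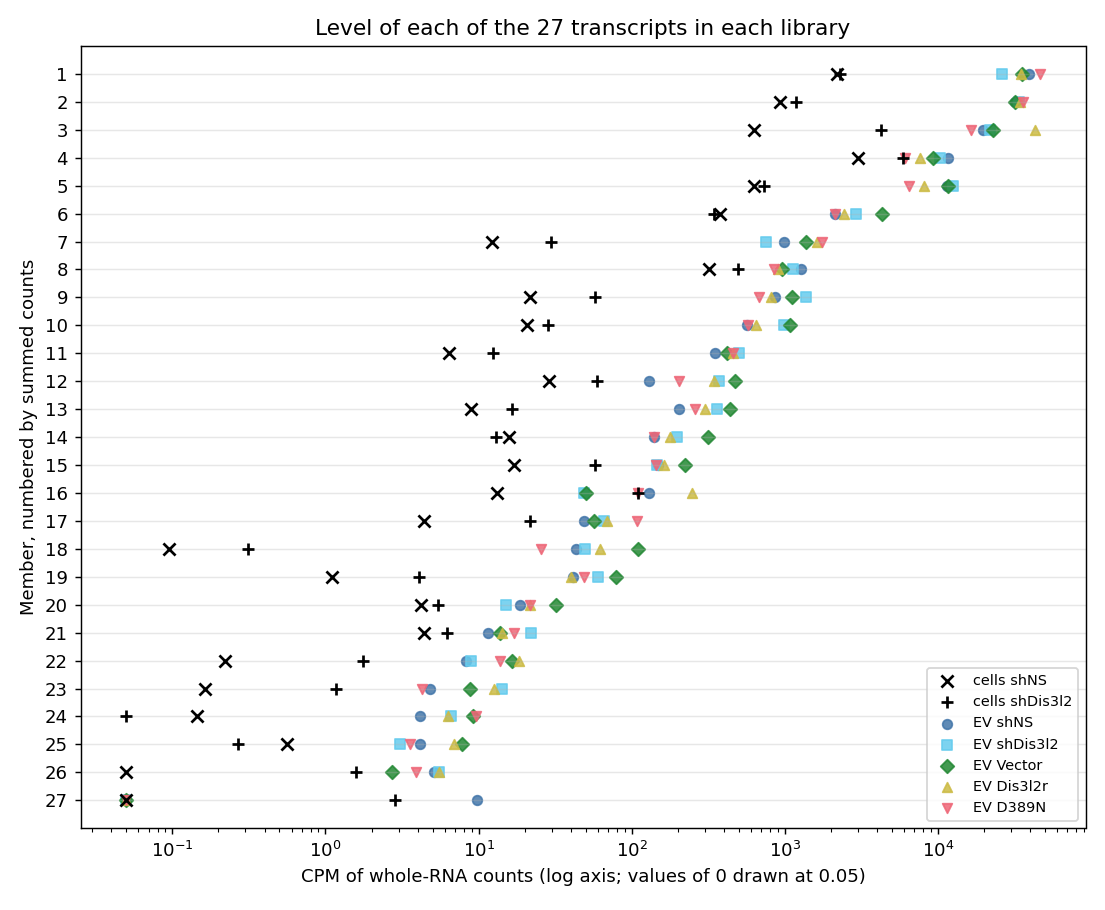
CPM on a log x axis for each of the 27 members (y axis, numbered by summed counts in the 5 libraries the rule did not use), with coloured symbols for the 5 EV libraries and crosses for the 2 cell libraries. EV symbols lie to the right of the shDis3l2 cell cross for 25 members, with member 16 mixed and member 27 listed at 0 in the 4 EV libraries outside the rule.

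Enrichment was then examined in the libraries the rule did not use. Most members were higher in EVs there: all 4 other EV libraries lay above shDis3l2 cells for 25 of 27 members, as they did for 36.0% of the 556 whole-RNA rows with at least 100 counts over these libraries. That count depends on having ENSMUST00000083988 in the totals. Without it, member 4 had 189159 of 17795695 counts in shDis3l2 EVs and 191493 of 17443597 in shDis3l2 cells. It then lay below the cells in all 4 EV libraries. Member 8 in D389N EVs and member 26 in Vector EVs also fell below the cells. An edgeR quasi-likelihood fit set these 4 EV libraries against the lone shDis3l2 cell library over all rows. It called 17 of 27 members higher at an adjusted p (Benjamini-Hochberg, over 701 rows) below 0.05, against a background of 21.1% of rows called higher. It called 1 member lower, against 39.4%. DESeq2 with its size factors called 25 members higher and 1 lower, against 28.5% and 34.0% of its 751 rows. The median log2 fold change of the members was 3.09, with 2 members listed at 0 on one side taken at their bound, and that of all rows was -0.28. The EV libraries are different genotypes and the cell library is assumed to vary as they do.

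The 2 members with the most counts among those called higher were ENSMUST00000083767 and ENSMUST00000083211. The first was higher by a log2 fold change of 3.96 (SE 0.488, edgeR adjusted p = 2.74e-05), in 4 of 4 EV libraries. The second was higher by 4.84 (SE 0.443, edgeR adjusted p = 2.75e-06), also in 4 of 4. Member 3 was higher by 2.62 (SE 0.576, edgeR adjusted p = 0.00189), and the lowest of its 4 EV levels was 3.87 times the cell level. Member 18, ENSMUST00000178620, had the widest gap between compartments of the members with counts in both. It had 49.8, 109.7, 61.9 and 25.6 CPM in shDis3l2, Vector, Dis3l2r and D389N EVs and 0.310 CPM, from 10 counts, in shDis3l2 cells.

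The 10 members that the fit did not call higher included the 4 with the lowest ratios in the shNS pair, members 21, 4, 8 and 20. Member 4 stood at 0.49 (SE 0.417, edgeR adjusted p = 0.317) and member 8 at 0.96 (SE 0.493, edgeR adjusted p = 0.112). ENSMUST00000104135, the member nearest the limit, stood at 1.43 (SE 0.980, edgeR adjusted p = 0.229). Member 16, ENSMUST00000083424, stood at 0.06 (SE 0.921, edgeR adjusted p = 0.963). Its shDis3l2 cell level of 109.9 CPM lay above shDis3l2, Vector and D389N EVs, at 48.7, 50.0 and 109.7 CPM, and below Dis3l2r EVs at 248.5 CPM. Member 27, ENSMUST00000083163, was called lower (edgeR adjusted p = 0.00939). It was listed at 0 in all 4 EV libraries and had 91.7 counts in shDis3l2 cells, whereas the rule had taken it with 231.7 counts in shNS EVs and 0 in shNS cells.

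The matched pair of shDis3l2 EVs and shDis3l2 cells gave a like picture without a test. Both libraries are also in the fit above, with the same lone cell library, so the pair is not independent of it. Members were counted by a rule of size. It asked for 100 counts or more in the pair, a 2-fold ratio or more in either direction, and an exact binomial 95% interval without 1 in it. Of 25 members with enough counts, 23 were higher, against a background of 33.1% of 525 rows, and 1 was lower, against 58.1%. The median log2 ratio of the 25 was 3.51, against -3.31 over all rows, 2.67 over 163 tRNA rows and -6.03 over 284 transcripts that the rule had not taken, of which 0 were higher and 269 lower. ENSMUST00000083211 stood at 4.84 (4.82 to 4.85) and ENSMUST00000083767 at 3.51 (3.50 to 3.52). Member 18 stood at 7.33 (6.45 to 8.40). The lower one was ENSMUST00000083424, at -1.17 (-1.28 to -1.07), which lay inside the limit at -0.45 with DESeq2 size factors. Member 4 lay inside the limit at a log2 ratio of 0.79. Without ENSMUST00000083988 in the totals, 17 members were higher and 1 lower, beside 146 and 324 of the 525 rows. With totals of exon pieces, 23 were higher and 1 lower, beside 178 and 302 rows.

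**Figure D3:**
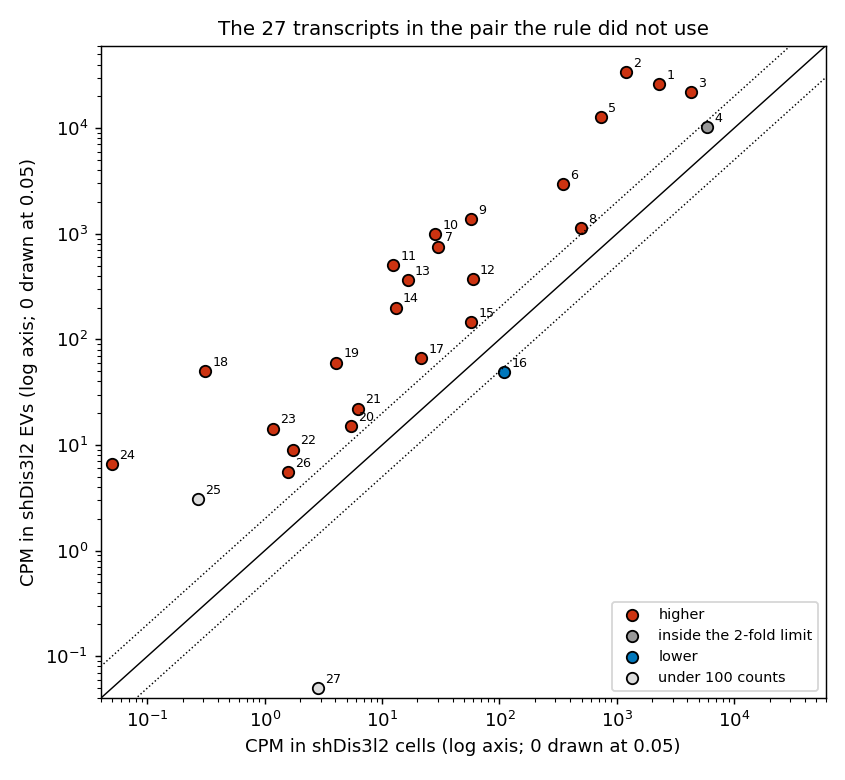
CPM in shDis3l2 EVs (y, log axis) against shDis3l2 cells (x, log axis) for the 27 members, each point labelled with its member number, with a solid line of equality and dotted lines at 2-fold. The 23 members that were higher lie above the upper dotted line, member 4 between the lines and member 16 below, and members 25 and 27 had under 100 counts over the pair.

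Run on the shDis3l2 pair instead, the rule would have taken 24 of 314 transcripts with enough counts. They shared 23 with the members, which was 85.2% of the members and 95.8% of the other list. The 1 further transcript was ENSMUST00000082474, named here after its values were seen, with 122.2 counts over the shDis3l2 pair, and too few in the shNS pair for the rule. Of the 4 members not taken again, 2 had under 100 counts over the pair and the other two were members 4 and 16.

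For 3 members the counts match SINE rows of the table, which stand for short interspersed repeats whose RNA polymerase III transcripts carry the repeat's own promoter. Each had the counts of a SINE row within 1 count in all 7 libraries. Members 7 and 11 matched the 2 rows of SINE_B1_Mus2, a B1 repeat, and member 24, ENSMUST00000122547, matched SINE_B2_Mm2, a B2 repeat. Member 7 had 750, 1382, 1618 and 1755 CPM in shDis3l2, Vector, Dis3l2r and D389N EVs and 29.8 CPM in shDis3l2 cells, where the lowest EV value was 25.2 times the cell value. Member 11 was steadier, between 419 and 503 CPM in those EVs, against 12.4 CPM in the cells. Both were higher in the fit, at 5.53 (SE 0.780, edgeR adjusted p = 7.62e-05) and 5.21 (SE 0.765, edgeR adjusted p = 0.000106). SINE_B2_Mm2 was rarer, with 6.34 to 9.56 CPM in the 4 EV libraries and 0 counts in shDis3l2 cells. Against a floor of 3 counts in the cell library it was at least 70.7-fold higher in shDis3l2 EVs.

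The members varied among EV libraries as well. The highest of the 4 EV libraries outside the rule was 1.12 to 5.10 times the lowest over 26 members, with a median of 1.99, against a median of 2.42 over 446 whole-RNA rows. Vector EVs were the highest for 10 of the members, shDis3l2 EVs for 7, D389N EVs for 5 and Dis3l2r EVs for 4. The following ratios are scaled by the trimmed mean of M values (TMM) over the 5 EV libraries.

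Re-expression of Dis3l2 was set against the empty vector. Few members differed: 1 of 26 was higher with Dis3l2r, against 23.4% of 393 rows, and 2 were lower, against 9.92%. The median log2 ratio was -0.42 over the members, -0.04 over all rows, -0.49 over 166 tRNA rows and 1.18 over 145 transcripts the rule had not taken. The member higher was ENSMUST00000083424, with 50.0 CPM in Vector and 248.5 CPM in Dis3l2r EVs. These unscaled levels give a log2 ratio of 2.31, and with TMM the ratio was 2.12 (2.03 to 2.22). Its whole row had 1259.3 counts in Vector and 3340 in Dis3l2r EVs, whereas its UTR piece had 79.5 and 70. The piece therefore did not repeat a rise of that size. The lower ones were ENSMUST00000177910, member 19, at -1.17 (-1.31 to -1.03), and ENSMUST00000178620, at -1.02 (-1.13 to -0.90). With totals in place of TMM both lie inside the limit, at -0.98 and -0.83, and 2 members are higher and 0 lower, beside 104 and 21 of the 393 rows. With DESeq2 size factors 5 are lower, beside 54 of the 393 rows. Of the 26, 20 lay below 0 with TMM. With totals the median was -0.23 over the members and 0.15 over all rows.

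The D389N protein was set against the same Vector library, so both sets of ratios share it. By the rule 2 of 26 members were higher, against 10.8% of 378 rows, and 1 was lower, against 12.2%. ENSMUST00000083424 was higher at 1.39 (1.29 to 1.49), beside 2.12 with Dis3l2r, by its whole row. Its UTR piece had 79.5 counts in Vector, 70 in Dis3l2r and 98.6 in D389N EVs. ENSMUST00000157400, member 17, was higher at 1.20 (1.11 to 1.30), beside 0.10 with Dis3l2r. ENSMUST00000178620 was lower at -1.84 (-1.98 to -1.71), beside -1.02 with Dis3l2r. Its UTR piece, a second count of the transcript, had 1142.3 counts in Vector, 267.3 in Dis3l2r and 657.3 in D389N EVs. The last is above the 536.3 counts of its whole row. Whole-RNA totals were 25177102, 13439408 and 20950531, so the piece was higher in D389N than in Dis3l2r EVs. By UTR pieces 0 of 20 members passed the rule of size as lower with D389N than with Vector, beside 16 of 137 rows. The median log2 ratio on UTR pieces was -0.28 over the members and 0.15 over all rows. On whole rows the median was -0.33 over the members and 0.09 over all rows. With totals ENSMUST00000157400 lay inside the limit at 0.94, and 1 member was higher and 6 lower, beside 26 and 68 of the 378 rows.

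D389N against Dis3l2r EVs set the inactive against the active transgene. Here 2 of 26 members were higher in D389N EVs, against 6.88% of 378 rows, and 1 was lower, against 15.9%. ENSMUST00000157400 stood at 1.10 (0.99 to 1.21) and ENSMUST00000122547, the SINE_B2_Mm2 row, at 1.04 (0.67 to 1.43). ENSMUST00000175164, member 23, stood at -1.12 (-1.51 to -0.75), from 170.2 and 89.3 counts. ENSMUST00000198477 lay just inside the limit at -0.94. The median of the members was 0.24 with TMM and -0.21 with totals, so its sign depends on the scaling. Totals gave 0 members higher and 4 lower, beside 8 and 104 of the 378 rows, and TMM of the pair alone gave 0 and 3, beside 10 and 82.

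The Vector and shDis3l2 EVs both come from the knockdown line without a Dis3l2 transgene, and they show how far such libraries can lie apart. In Vector EVs 3 of 26 members were higher, against 8.91% of 393 rows, and 0 were lower, against 14.8%. With most counts among them were ENSMUST00000178620 at 1.17 (1.07 to 1.28) and ENSMUST00000101990, member 20, at 1.11 (0.91 to 1.31), and the other was member 25. With DESeq2 size factors 5 were higher, beside 48 rows higher and 47 lower. ENSMUST00000178620 thus differed more than 2-fold between 2 EV libraries of the knockdown line that carry no Dis3l2 transgene. Between the D389N and Dis3l2r EVs it lay inside the limit, at -0.82, by its whole row. Its UTR piece went the other way there, with 657.3 counts in D389N and 267.3 in Dis3l2r EVs.

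**Figure D4:**
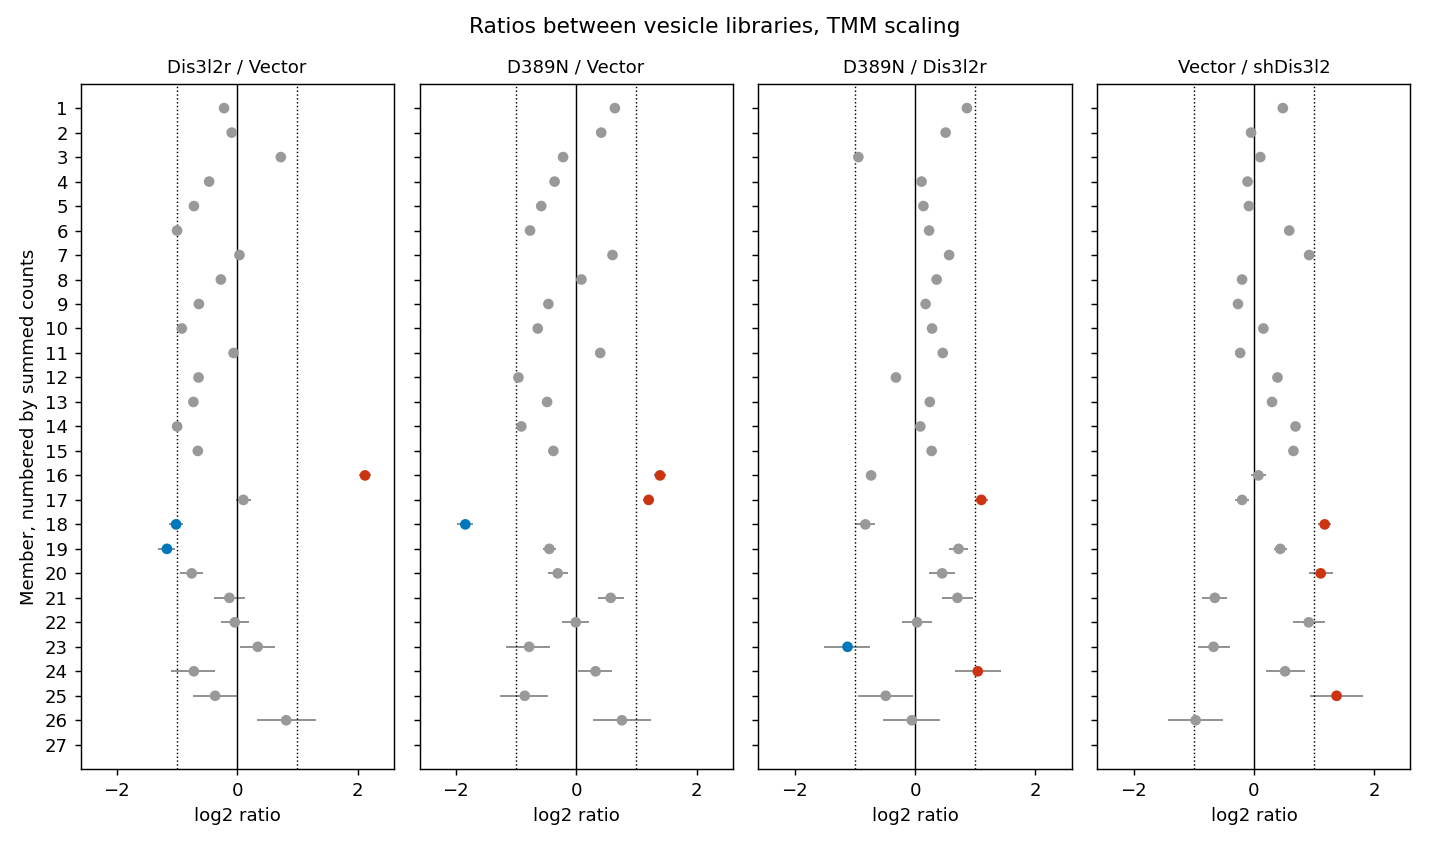
Log2 ratios (x axis, TMM scaling) between pairs of EV libraries for each member (y axis, member number), with exact binomial 95% intervals for counting error as bars and dotted lines at 2-fold. Red and blue points passed the rule of size. At most 3 members passed in any one direction, and 0 were lower in Vector against shDis3l2 EVs.

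4 members show the range of patterns over the 7 libraries. Their shNS values chose them, high in EVs and low in cells, and are given as a description only. Member 3 was high in Dis3l2r EVs and in shDis3l2 cells, as given above. Member 16 had 248.5 CPM in Dis3l2r, 130.4 in shNS and 109.7 in D389N EVs, and 48.7 and 50.0 CPM in shDis3l2 and Vector EVs, the 2 EV libraries of the knockdown line without a transgene. Its cell levels were 13.1 CPM with shNS and 109.9 with shDis3l2. The UTR piece of member 16 was not highest in Dis3l2r EVs. It had 142.8 counts in shNS, 98.6 in D389N, 79.5 in Vector, 70 in Dis3l2r and 21.5 in shDis3l2 EVs. Member 17 was highest in D389N EVs at 108.8 CPM, with the other EV libraries between 48.6 and 69.3 CPM and cells at 4.40 and 21.6 CPM. Member 18, among EVs, was highest in Vector at 109.7 CPM and lowest in D389N at 25.6 CPM by its whole row. Its UTR piece was not lowest in D389N EVs, with 657.3 counts against 267.3 in Dis3l2r and 298.5 in shNS EVs.

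**Figure D5:**
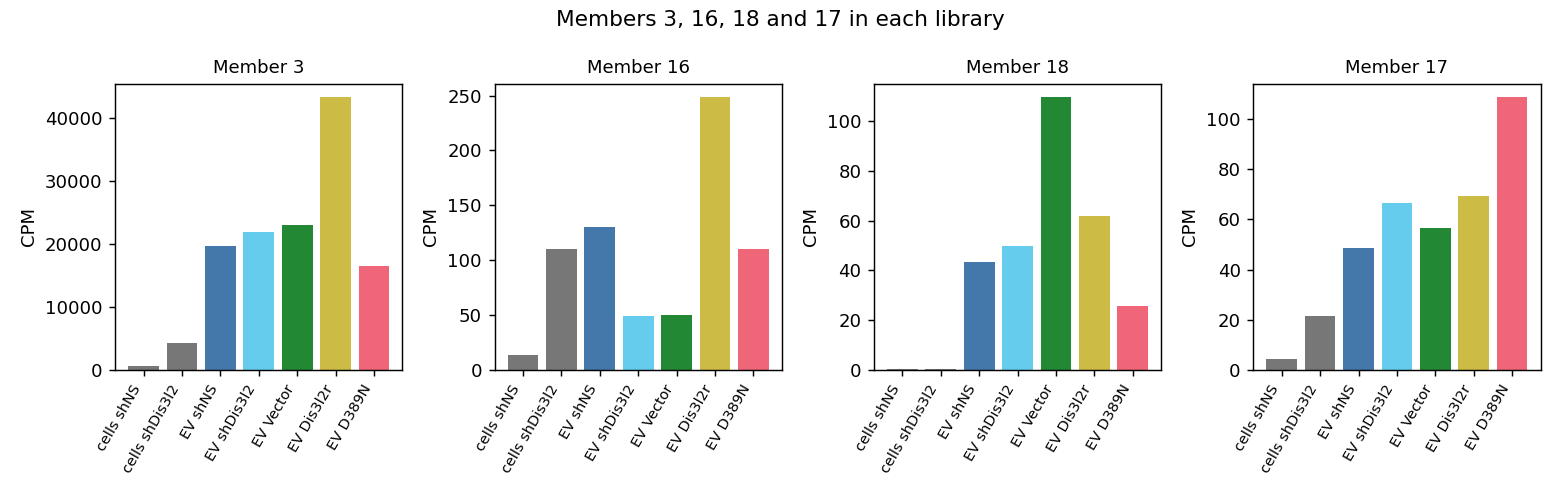
CPM (y axis, starting at 0) of members 3, 16, 18 and 17 in each library (x axis), 1 library per bar and no error bars because there are no replicates. Member 3 reaches 43259 CPM and member 16 reaches 248.5 CPM in Dis3l2r EVs, member 18 reaches 109.7 CPM in Vector EVs and member 17 reaches 108.8 CPM in D389N EVs.

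No member was called when EVs were split by Dis3l2 class. The edgeR fit set shDis3l2, Vector and D389N EVs, classed from the series' design text as without active Dis3l2, against Dis3l2r EVs; shNS EVs were left out because the rule used them. Of 26 members tested, 0 were higher and 0 lower at an adjusted p below 0.05, against 0% and 0.154% of 651 rows. The 2 members with the largest log2 fold changes, picked from the 26 by size, were ENSMUST00000083424 and ENSMUST00000198477. They stood at -1.66 (SE 0.695) and -0.94 (SE 0.407), and neither was called. By their whole rows both were lower in 3 of 3 libraries without active Dis3l2 than in the lone Dis3l2r library. With 1 library on a side the fit cannot separate the class from that library.

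2 further pairs hold a library of the rule and are given as values only. In these the members were high in shNS EVs and low in shNS cells by choice, so no direction is read from them. In shDis3l2 against shNS EVs 3 of 27 members were higher (background 7.06% of 411 rows) and 2 lower (4.14%). With DESeq2 size factors 2 members were higher and 2 lower, beside 22 and 22 of the rows. The most counted were ENSMUST00000083298, member 12, at 1.61 (1.55 to 1.67) and ENSMUST00000104135 at 1.04 (0.81 to 1.26), and the lower ones ENSMUST00000083424 at -1.33 (-1.44 to -1.22) and ENSMUST00000083163, with 231.7 counts in shNS EVs and a listed 0. ENSMUST00000104135 lay inside the limit with DESeq2 size factors, at 0.93, and with totals, at 0.94. In shDis3l2 against shNS cells 11 of 20 members were higher (background 11.7% of 512 rows) and 0 lower (24%). Without ENSMUST00000083988 in the totals 14 were higher and 0 lower, beside 108 and 74 of the rows. ENSMUST00000178106 stood at 1.24 (1.23 to 1.25) and ENSMUST00000198477 at 3.04 (3.02 to 3.06) there.

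Most members had estimated counts that are not whole. Salmon, named in the submitters' notes, splits reads that fit several sequences, which leaves counts that are not whole. Of the 27 members, 19 (70.4%) had no whole count (within 0.01) in any library, against 51 (17.5%) of the 292 transcripts not taken. A listed 0 was taken as whole, and the rule left the 292 with low levels in EVs. These shares therefore do not compare like with like. Members without whole counts may share reads with near-identical copies, and their single values are uncertain to that degree. The UTR piece of the same transcript is a second count in the table. It held 90% to 110% of the whole row's counts in 12 members, members 1 to 5 among them, and under 10% in 7, members 7, 11 and 24 (the SINE matches) and member 16 among them. Member 16 had 21.5 to 142.8 counts on its UTR piece per library, against 485.2 to 3555 on its whole row, so the piece held 3.25% of its counts. On UTR pieces 16 of 19 members with enough counts were higher in shDis3l2 EVs than in cells and 0 lower, beside 22 and 243 of 281 rows. In Dis3l2r against Vector EVs 0 of 20 were higher and 2 lower, beside 73 and 5 of 153 rows. Member 27 had 65.0 counts on its UTR piece in shDis3l2 EVs, where its whole row is listed at 0, and 120.7 in shDis3l2 cells.

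By level over the 7 libraries, the RNAs most like member 1 were tRNAs, the adaptors that bring amino acids to the ribosome. Pearson correlations of log2(CPM + 1) over the 7 libraries were 0.997 with tRNA-Arg-CCG-2-1, 0.995 with tRNA-Gly-GCC-1-1 and 0.994 with tRNA-Glu-TTC-3-1. These 7 points fall into 2 compartments and share the totals, so the values only describe a like profile. Among them tRNA-Arg-CCG-2-1 had 14387 to 23587 CPM in EVs and 659 and 478 CPM in shNS and shDis3l2 cells.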

How the data were processed

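The authors deposited 1 table of estimated counts (expected read counts, not scaled between libraries) for 7 libraries of RAW264.7 cells and EVs. The submitters' processing notes name Novoalign, Salmon, cutadapt and UMI-tools, and the builds GRCm38 and mm10; the sources used here give no versions or order. Libraries were made from equal RNA input by template switching, with a random sequence for deduplication, per the labels' protocols.

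Counts were rounded for intervals and fits. Library totals are those of the 3894 whole-RNA rows. Pairs are log2 ratios with exact conditional binomial 95% intervals, scaled by totals (EV against cell) or by TMM (the 5 EV libraries, or the 2 cell libraries). Fits used edgeR 4.0.16 with glmQLFit, filterByExpr and Benjamini-Hochberg adjustment over all rows tested, with totals (EV against cell, 3 residual degrees of freedom) or TMM (Dis3l2 class, 2). Other software was matplotlib 3.10.9, scipy 1.17.1, numpy 2.4.6 and pandas 2.3.3 under Python 3.11.15, and DESeq2 1.42.0 under R 4.3.3. Scripts were tested on simulated data. The members, lists and comparisons were chosen with earlier results of these data known. Lists by gene symbol (noncoding RNA families and macrophage markers) could not be matched to IDs and have no result. The rule for names took, in each comparison, at most 2 IDs higher and 2 lower with the most counts, the transcripts nearest the 2-fold limit, members that match a row of another name, and the 3 RNAs most like member 1; other members were singled out after their values were seen. Alternatives were other scalings, count minimums, fits, libraries left out and UTR pieces.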

Additional observations from a re-analysis of the deposited data

Results flagged for a closer look

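2 members stood higher in EVs than in cells in the control line and lower in the knockdown line by their whole-row counts. The difference was not tested, since each line has 1 library per compartment and the shNS pair chose the members. ENSMUST00000083424 was 9.96 times as high in shNS EVs as in shNS cells, whereas in shDis3l2 EVs against shDis3l2 cells its log2 ratio was -1.17, or -0.45 with DESeq2 size factors. Its UTR piece had 21.5 counts in shDis3l2 EVs and 40.7 in shDis3l2 cells, from libraries of 18428621 and 32342600 whole-RNA counts. Scaled to those totals the piece was close to level, so it did not lie clearly below the cells as the whole row did. In the shNS pair the piece had 142.8 counts in EVs and 32.3 in cells. By the piece, too, this transcript was higher in EVs in the control line and not in the knockdown line. ENSMUST00000083163 had 231.7 counts in shNS EVs and 0 in shNS cells, and was listed at 0 in shDis3l2 EVs with 91.7 counts in shDis3l2 cells, which is under the minimum of 100 counts used for pairs. Its UTR piece had 65.0 counts in shDis3l2 EVs and 120.7 in shDis3l2 cells, from libraries of 18428621 and 32342600 whole-RNA counts. The piece was therefore close to level between EVs and cells there, and only the whole row was clearly lower in EVs. In the shNS pair the piece had 243.6 counts in EVs and 0 in cells.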

How the results depend on the processing

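No paired analysis was possible because the labels give no replicate numbers and shDis3l2 is the only line, apart from the shNS line that chose the members, with both an EV and a cell library. The EV against cell fit holds 1 cell library, so its alternatives are given here as median log2 fold changes. The main fit gave 3.09 over the members and -0.28 over all rows. Leaving out each EV library in turn gave 3.14 to 3.33 over the members and -0.80 to -0.51 over all rows. In the same order, TMM gave 2.42 and -0.91, and no filter gave 3.09 and 1.48. Totals without ENSMUST00000083988 gave 2.26 and -1.24, and DESeq2 gave 3.89 and 2.30. The median of all rows thus moved with the setting as well. A fit of all 7 libraries called 23 members higher and 0 lower, beside 31.2% and 47.7% of 642 rows. That fit holds the 2 libraries that chose the members and is no independent support. In the class fit every alternative run called 0 members. Members past the rule in shDis3l2 EVs against cells were 0 lower with DESeq2 size factors or UTR pieces and 2 lower at a minimum of 20 counts. Rows lower in those runs were 290 of 525, 243 of 281 and 324 of 591. Dis3l2r against Vector gave 2 higher and 0 lower with totals, 5 lower with DESeq2 size factors, 1 lower with TMM of the pair alone and 0 higher with UTR pieces. Beside these, in the same order, stood 104 and 21, 54 and 29 of 393 rows, and 73 of 153 rows. D389N against Vector gave 1 higher and 6 lower with totals, 2 lower with DESeq2 size factors, and 1 higher and 0 lower with UTR pieces. The rows there were 26 and 68 of 378, 49 of 378, and 20 and 16 of 137. D389N against Dis3l2r gave 0 higher and 4 lower with totals, 0 and 3 with TMM of the pair alone, 1 and 0 at a minimum of 500 counts, and 0 lower with UTR pieces. The rows there were 8 and 104 of 378, 10 and 82 of 378, 17 and 16 of 257, and 51 of 143. Vector against shDis3l2 gave 5 higher with DESeq2 size factors, 1 lower with totals and 1 higher with UTR pieces. The rows there were 48 of 393, 64 of 393 and 5 of 152. shDis3l2 against shNS EVs gave 1 lower at 500 counts, beside 4 of 276 rows. The causes were not tested. TMM of the pair alone, UTR pieces, exon-piece totals and the rule run on the shDis3l2 pair were chosen after seeing the data. Totals moved the median of all rows by 0.19, -0.26 and -0.45 in Dis3l2r against Vector, D389N against Vector and D389N against Dis3l2r. DESeq2 size factors moved it by 0.72 in shDis3l2 EVs against cells, and totals without ENSMUST00000083988 by -0.84.

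As a percent of all rows, pieces included, the members held 7.39% (shNS), 6.70% (shDis3l2), 7.48% (Vector), 7.39% (Dis3l2r) and 6.96% (D389N) of EV counts and 0.420% and 0.754% of shNS and shDis3l2 cell counts. Without ENSMUST00000083988 in the totals these were 12.8%, 11.8%, 12.5%, 14.9% and 12.3% of EV and 1.02% and 2.91% of cell counts. The rule gave 26 members at 3-fold and 20 at a minimum of 500 counts.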
